A study of Mus musculus and Homo sapiens with 22 samples.

Results

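The strong shared Lin28A sites in protein-coding genes were 689 of the 10990 Lin28A sites mapped in Mettl3 wild-type (WT) mouse embryonic stem cells. Each had a site score of at least 50 in the WT list, overlapped a site with a score of at least 50 in the Mettl3 knockout (KO) list by 1 nt or more on the same strand, and lay in a single RefSeq gene, protein-coding. They fell in 583 genes. The sites were chosen by their scores in both lists, so these scores and the fact that the sites are shared are given below as a description only.

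Lin28A is an RNA-binding protein of embryonic stem cells. It holds back the maturation of the let-7 microRNAs by binding their precursors, with its zinc knuckles on the sequence GGAG, and it also binds many mRNAs, among them mRNAs of the translation and secretory machinery. Mettl3 is the enzyme that methylates adenosines of mRNA at N6, a mark called m6A, and the KO cells are labelled as lacking it. Lin28A-bound RNA was mapped by irCLIP, in which ultraviolet light joins protein to RNA in living cells, the protein is pulled down with an antibody, and the attached RNA is trimmed, reverse transcribed and sequenced.

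Both libraries came from V6.5, a mouse embryonic stem cell line grown on gelatin with LIF. The Mettl3 WT and the Mettl3 KO cells were crosslinked at 254 nm with 0.3 J/cm2, precipitated with an antibody to Lin28A, and their libraries were amplified for 14 cycles. The labels do not say whether the KO line was 1 clone. Precipitations with an antibody to GFP from both genotypes served the study as controls and were not analysed here.

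Each genotype had 1 list, so no comparison between the genotypes has a replicate check and no p-value of a difference is given. The site scores are the authors' own values. Their meaning is not stated in the sources used here, and they serve only to describe, rank and filter sites within a list. The KO list held 11285 sites. Scores of at least 50 were reached by 13.4% of the WT sites and 12.2% of the KO sites, and 10.1% of the WT sites had such a score in both lists. Read depth is unknown. All 10 markers of embryonic stem cells that were looked up held sites in both lists, and none of 8 fibroblast markers did, although a site list gives no level. It gives no level of Mettl3 either, so the genotype labels were not checked.

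The choice went as follows. Of 1472 WT sites with a score of at least 50, 1465 overlapped some KO site and 1115 overlapped one that itself reached 50. Of these, 215 lay in no RefSeq gene, 119 in several genes and 92 in a single gene that was not protein-coding, which left 689, or 8.01% of the 8602 WT sites in a single protein-coding gene. They had 685 different partners in the KO list. The 583 genes were 16.2% of the 3596 protein-coding genes with a WT site of their own. Gene bounds were those of RefSeq on GRCm38.p6, the assembly behind mm10. Exons were not used, so whether a site lay in an exon, an intron or an untranslated region is not known here.

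The sequence of 9 of these sites could be read, because they lay whole inside a RefSeq start-site window of GRCm38.p6, which spans 250 nt before and 50 nt after the annotated start of a gene. Another 11 sites overlapped such a window in part, and the rest could not be read. Of the 9, 6 are shown as examples of a strong shared site with and without GGAG, the motif Lin28A is known for. Each is written 5′ to 3′ on the strand of the site, with GGAG in capitals where it occurs.
Dzip1, chr14:118922801-118922900, minus strand: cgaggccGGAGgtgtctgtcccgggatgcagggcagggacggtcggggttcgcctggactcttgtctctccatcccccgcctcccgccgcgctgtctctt
Scube2, chr7:109865651-109865700, minus strand: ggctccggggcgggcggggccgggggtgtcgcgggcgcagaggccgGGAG
Rpl13a, chr7:45128701-45128730, minus strand, the last 30 nt of the site: caggcggctgccgaagatggcGGAGgggca
Cldn34c1, chrX:123103501-123103550, minus strand: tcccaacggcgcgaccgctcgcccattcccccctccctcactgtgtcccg
Kmt5c, chr7:4740101-4740150, minus strand: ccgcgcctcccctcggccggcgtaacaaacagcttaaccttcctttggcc
Hmces, chr6:87913901-87913950, minus strand: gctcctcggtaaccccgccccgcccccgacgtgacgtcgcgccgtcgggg

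The sites of Dzip1, a protein of the cilium base, Scube2, a secreted protein that helps release hedgehog ligands, and Rpl13a, a protein of the large ribosomal subunit, were in the sense of their genes. Those of Cldn34c1, a claudin, Kmt5c, a histone H4 lysine methyltransferase, and Hmces, a shield of abasic DNA, lay on the opposite strand. Of the sites without the motif, that of Cldn34c1 had scores of 341 (WT) and 281 (KO) and that of Hmces 82 and 57. Of those with it, the Dzip1 site had 160.5 and 173 and the Rpl13a site 52 and 54. These are too few sites to relate the motif to the score. All of the 9 were rich in G and C, with 64.0% in the Kmt5c site as the lowest and 88.0% in the Scube2 site as the highest. The G and C share of the windows and of other WT sites in them was not taken, so these values have no comparison.

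GGAG, searched on the strand of the site, occurred in 2 of the 8 sites that were 50 nt wide (25%, exact 95% interval 3.19 to 65.1). It occurred in 63 of 173 other WT sites of that width inside start-site windows (36.4%, 29.2 to 44.1) and in 28.2% of the 394212 tiles of 50 nt cut from both strands of all 32851 windows. In this paragraph the other WT sites come from the whole WT list and were not limited to a single protein-coding gene. AAGNNG, searched in the same way and not required to be apart from GGAG, was held by 1 of the 8 sites, by 19.1% of the other WT sites and by 19.2% of the tiles. With 8 sites the interval for GGAG holds both comparison values, so no difference could be seen at this number. A match is a description of letters and says nothing about binding.

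The scores ran over a wide range, and most sites lay near its lower end. In the WT list the lowest was 50, the median 93 (95% interval from order statistics 89 to 98), the upper quartile 150 and the highest 15435. In the KO list the partner sites had a lowest score of 50, a median of 85 (81 to 89), an upper quartile of 135 and a highest of 8978. The medians of the whole lists were 20 (WT) and 19 (KO). Of the 689 sites, 379 had a WT score from 50 to below 100, 188 from 100 to below 200, 86 from 200 to below 500, 20 from 500 to below 1000, and 16 reached 1000. In the KO list the same classes held 426, 168, 66, 18 and 11. The highest 10 sites alone held 35.1% of the summed WT score and 30.9% of the summed KO score of the 689.

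**Figure D1:**
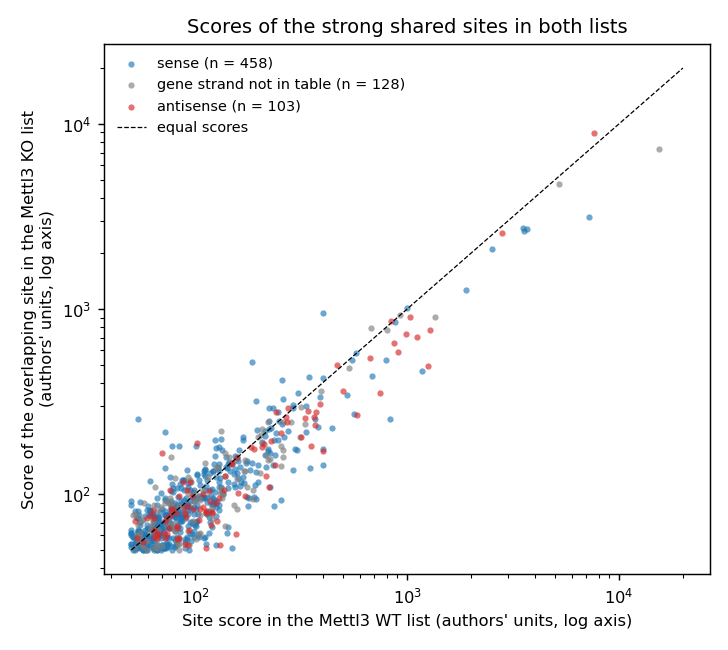
Each point is 1 of the 689 strong shared sites, with its WT score on the horizontal axis and the score of its KO partner on the vertical axis (authors' units, both axes logarithmic), coloured by orientation to the gene; the dashed line marks equal scores. The points follow the line from 50 up to 15435 (WT) and 8978 (KO), and antisense points are found from a WT score of 52 up to 7621.

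The order of the sites was much alike in the lists. Across the 689 sites, Spearman's rho of the scores was 0.790 and Pearson's r of the log2 scores 0.917. Without the 10 highest sites (n = 679) the values were 0.780 and 0.877. These correlations describe 1 pair of libraries, in which the points of a site share their gene and sequence, and RNA level was not measured. The sites were chosen by these same scores, so the correlations do not measure how the whole lists compare. The WT score was the higher in 434 sites, the KO score in 240, and 15 were equal. The median ratio of the KO to the WT score was 0.921, beside summed scores over all sites of 490964 (WT) and 454053 (KO). In 653 sites (94.8%) the scores were within 2 times of each other. The rule itself favours this share. Both scores had to reach 50, so a site below 100 in 1 list could not be lower by more than 2 times in the other.

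A few sites stood far from equal, and each rests on 1 library per genotype. Mcm5, a subunit of the replicative helicase, had 2 WT sites of 50 nt at chr8:75127451-75127500 and chr8:75127551-75127600 with scores of 54 and 828. Both overlapped the same KO site of 150 nt with a score of 256, so these scores were not taken over the same bounds. Of the sites with the same bounds in both lists, the lowest ratio was that of Sf3a3, a splicing factor subunit, with 149 (WT) and 51 (KO). Cep89, a protein of the centriole, had 1178 and 465. In the other direction, Ank2, a membrane adaptor of the ankyrin family, had 72 and 216, and Pdzrn4, a PDZ and RING domain protein, 186 and 517. These were the extremes of 689 pairs and carry no test.

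The threshold of 50 cut through a dense part of the distribution. Just inside it by WT score, all at 50, were the sites of Chaf1b, a chromatin assembly factor, H2bc11, a histone H2B, Hnrnpa2b1, Itga3 and Polr1d. Just outside, with 49 in WT, were sites of Lap3, Phf5a, Polr2a and Uba2, and with 49.7 a site of the cochaperone Stip1, and all 5 had KO scores from 50 to 76. By KO score, Akap12, Bbx, Cct3, Cldn4 and Eif4a1 were inside at 50, while Taf11, Tmem200b and Wwc2 at 49, Rack1 at 49.2 and Prpf8 at 49.5 were outside. There were 44 sites with a WT score from 50 to below 55, and 43 more would have joined had the WT threshold been 45. Near the threshold, strong and other sites thus had nearly the same scores.

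The highest scores lay in genes with hardly any other Lin28A site. These sites overlapped no other RefSeq gene, but whether they lay on repeats or on copies of small RNA genes outside that table was not tested, so each gene is named for its bounds only. The 10 of the 689 sites with the highest WT scores were also the 10 with the highest KO scores among the 689, all were 50 nt wide, and 6 were the only WT site overlapping their gene. The highest was in Trappc9, a subunit of the TRAPP membrane-tethering complex, at chr15:72907101-72907150 on the plus strand, with 15435 (WT) and 7350 (KO). Il1rapl1, a synaptic relative of the interleukin receptors, followed at chrX:87238351-87238400 with 7621 and 8978. Oasl2, a relative of the antiviral oligoadenylate synthetases, had 7217 and 3159 at chr5:114901951-114902000. These 3 sites stood far above the upper quartile of the 689 in both lists.

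Pop1, a protein subunit of RNase P and RNase MRP, had scores of 5232 (WT) and 4708 (KO) at chr15:34512051-34512100. Slc5a8, a monocarboxylate transporter, had 3678 and 2715 at chr10:88890301-88890350. Grk1, the kinase of rhodopsin, had 3554 and 2631 at chr8:13407901-13407950. Fnbp1l, an F-BAR protein that shapes membranes, had 3537 and 2728 at chr3:122619451-122619500, at 0.294% of the gene's length from its 5′ bound. None of these genes belongs to a set fixed for this description, and their Lin28A sites numbered 1 to 3 in either list. Pwwp3b, a PWWP domain protein, had 2799 and 2569 at chrX:139227651-139227700. Apba2, an adaptor of the amyloid precursor protein, had 2523 and 2106 at chr7:64593951-64594000, and Kcnk2, a leak potassium channel, 1903 and 1271 at chr1:189264351-189264400. The sites in Il1rapl1 and Pwwp3b were antisense to the gene, 6 of the 10 were in sense, and the strand of Trappc9 and Pop1 was not in the table used. The highest scores of the list therefore did not lie in the genes with the most sites.

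Of the 583 genes, 509 held 1 such site, 54 held 2, 13 held 3, 4 held 4, 2 held 5 and 1 held 7. The 74 genes with 2 or more (12.7%) held 180 of the 689 sites (26.1%). The 7 genes with 4 or more were Eef2, Hsp90ab1, Rps3, Rpl8, Trim28, Eef1a1 and Ran, and of their sites only 1, in Eef2, reached a WT score of 500.

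Eef2, the elongation factor that moves the ribosome along the mRNA, held 7 strong shared sites among 23 WT and 22 KO sites overlapping the gene (chr10:81176631-81182509). From the 5′ bound, their WT scores were 101.5, 90, 152, 160, 55, 122.5 and 685, and the KO scores 70.75, 74, 128.5, 123, 91, 91 and 436. The sites with 55 and 122.5 in WT share 1 KO site of 150 nt. The highest, at chr10:81182001-81182050, lay 484 nt from the 3′ bound and stood above the other 6 in both lists.

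Hsp90ab1, a cytosolic Hsp90 chaperone, held 5 among 14 WT and 13 KO sites (chr17:45567778-45573261). In the WT list they had 81.75, 70, 80.7, 61.5 and 97.75 from the 5′ bound, and in the KO list 67, 52.7, 63.3, 63.3 and 91.7. One of them, at chr17:45569451-45569850, was the widest of all strong shared sites, at 400 nt in WT and 350 nt in KO. Its 5 sites filled 1100 nt of a gene of 5484 nt, all between 39.4% and 72.2% of its length, with no score far above the others.

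Rps3, a protein of the small ribosomal subunit, held 5 among 9 WT and 8 KO sites. Their WT scores from the 5′ bound were 85, 55, 67.3, 108.2 and 179, and their KO scores 72, 56.3, 59.3, 96.4 and 95.5. Rpl8, of the large subunit, held 4, with 144, 115, 108.6 and 120 in WT and 159, 124, 103.8 and 73.7 in KO. The strong sites of Rps3 began at 1.44% of the gene and those of Rpl8 at 13.5%, so neither set was confined to the 3′ part. Ribosomal protein genes have processed copies elsewhere in the genome, and how reads were split between them is not stated, which makes these scores uncertain. The same holds for Eef1a1.

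**Figure D2:**
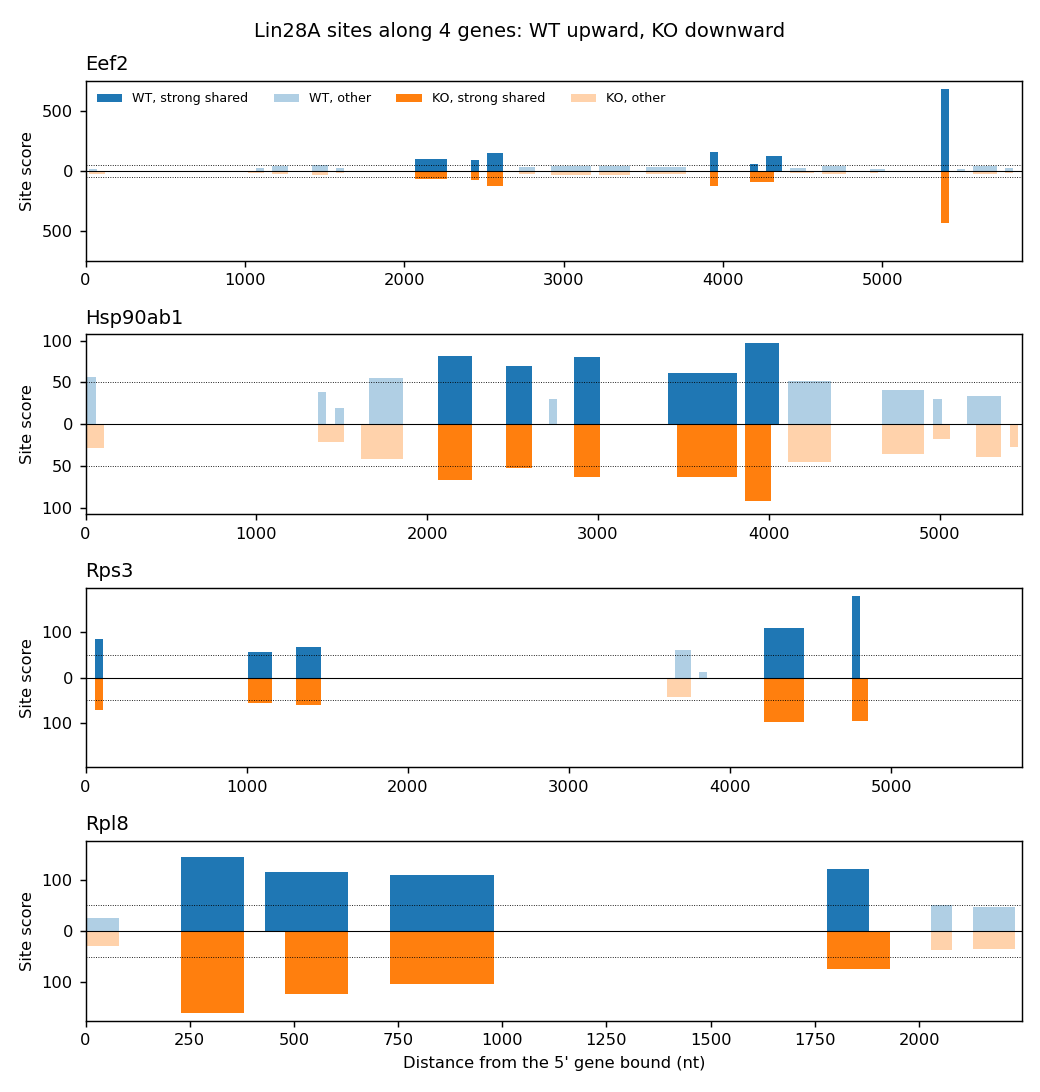
Lin28A sites along Eef2, Hsp90ab1, Rps3 and Rpl8, the 4 genes with the most strong shared sites (ties by summed width): horizontal axis, distance from the 5′ gene bound in nt, introns included; bar height, site score, WT upward and KO downward; dark bars, strong shared sites; dotted lines, a score of 50. For Eef2 and Rps3, fewer sites are drawn than the text counts as overlapping the gene. The bars of the lists mirror each other, and in Eef2 1 site at 685 (WT) and 436 (KO) stands above the rest.

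Trim28, a corepressor that silences retroelements, also held 4, with WT scores of 102, 256.5, 81.3 and 64 and KO scores of 127.75, 241, 75 and 61.3. Eef1a1, the factor that brings aminoacyl-tRNA to the ribosome, held 4 with WT scores from 61 to 75 and KO scores from 63 to 102. Ran, the GTPase that drives nuclear transport, held 4 from 57 to 98 and from 55 to 97. All of these were in sense and spread along the gene, from 10.9% to 62.8% of its length in Trim28, from 32.0% to 82.5% in Eef1a1 and from 14.9% to 68.9% in Ran.

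Of the genes with 3, Cdk8, the kinase of the Mediator complex, differed from the rest. Its 3 sites were its only sites in either list, lay within 350 nt of each other at 42.0% to 42.3% of a gene of 72080 nt, and had WT scores of 232, 175 and 167.5 and KO scores of 293, 152 and 197. In Huwe1, a large ubiquitin ligase, all 3 lay between 96.4% and 97.9% of the gene, with 245, 74.3 and 111 in WT and 277, 67.7 and 136 in KO. Scd2, a fatty acid desaturase, likewise had its 3 between 89.7% and 98.2%, with 95.5, 65 and 57.7 in WT and 116.5, 109.75 and 90 in KO, higher in KO at each site. The other genes of this group that the naming rule took, Atp5b (a subunit of ATP synthase), Rpl4, Srsf1 (a splicing factor), Cct6a (a subunit of the chaperonin TRiC) and Jade1 (a subunit of a histone acetyltransferase), had WT scores from 50 to 143.

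In the gene sets, the share of genes with a strong shared site was read against the 16.2% (15.0 to 17.5) of all protein-coding genes with a WT site. The sets were chosen with results of these data known, so the counts describe them and support nothing. A site list does not give the level of an mRNA, so the shares take no account of it. Nor do they take account of how many WT sites a gene held, although a gene with more sites has more chances to hold a strong one.

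**Figure D3:**
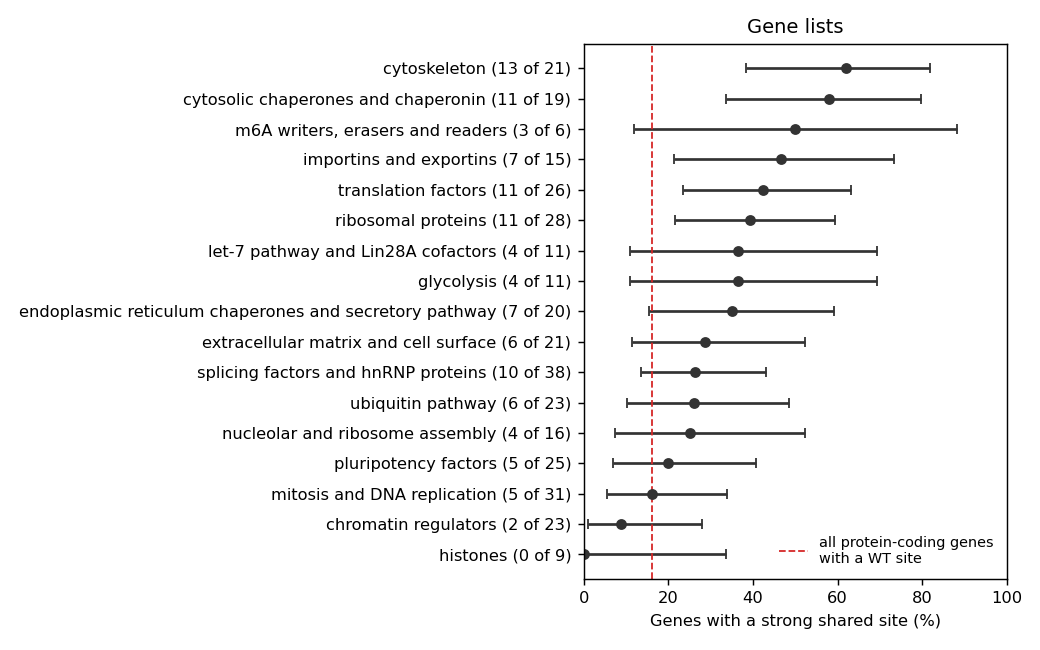
Share of the genes with a WT site of their own that held a strong shared site (horizontal axis, percent), for 17 gene sets with counts in brackets; points with exact 95% intervals, and the dashed line marks the 16.2% of all protein-coding genes. Cytoskeletal genes and the set of cytosolic chaperones and chaperonin, which also names mitochondrial chaperones, stand highest at 61.9% and 57.9%. The histone set at 0% holds mainly variant and linker histones, and it leaves out 10 clustered core histone genes that did hold such sites.

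Translation and protein folding had high shares. Among translation factors, all 26 genes had a WT site and 11 of them (42.3%, 23.4 to 63.1) held 24 strong shared sites. Besides Eef2 and Eef1a1, Pabpc1, the cytoplasmic poly(A)-binding protein, had 3 at 55, 206 and 220 in WT and 59, 189 and 153 in KO, and Eif4b, a helper of the initiation helicase, had 289 and 53.6 in WT and 303 and 74 in KO. Of the 28 genes of the ribosomal protein set with a WT site, 11 (39.3%, 21.5 to 59.4) held 26 sites. The set does not name every such gene: Rps20, Rps21, Rps26 and Rpl37 are not in it and also held a strong shared site. The set of cytosolic chaperones and chaperonin had 11 of 19 (57.9%, 33.5 to 79.7) with 21 sites. This set also names mitochondrial chaperones, and 2 of them, Hspa9 and Hspd1, are among the genes with a strong shared site. Tcp1, another subunit of TRiC, had 135.5 and 119.5 in WT and 100 and 107 in KO. The intervals of these 3 sets lie above the value for all protein-coding genes. This is a description and not a test, because the sets were chosen with results of these data known. The number of WT sites per gene was not taken into account.

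Cytoskeletal genes had the highest share, 13 of 21 (61.9%, 38.4 to 81.9). The actin crosslinker Flna had 2 sites at 143 and 89 in WT and 145.5 and 77.5 in KO, Actn4, an alpha-actinin, had 67 and 182 in WT and 63 and 136 in KO, and Myh9, a nonmuscle myosin, 106 and 64 in WT and 96 and 51 in KO. Beta-actin itself, Actb, had 1, at 97.3 (WT) and 71.3 (KO). Importins and exportins had 7 of 15 (46.7%, 21.3 to 73.4). Ipo5, an importin, reached 521 in WT and 342 in KO at chr14:120935151-120935250, Kpnb1, importin beta, had 94.5 and 76.5 in WT, and Cse1l, which returns importin alpha to the cytoplasm, 64 and 52. The intervals of these sets, too, lie above the value for all protein-coding genes, as a description with the same limits.

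Of 20 genes for chaperones of the endoplasmic reticulum and the secretory pathway, 7 (35%, 15.4 to 59.2) held 10 sites. Hsp90b1, the Hsp90 of that compartment, had 91.3 and 55 in WT and 85 and 51 in KO, Pdia6, a protein disulfide isomerase, 91.3 and 68 in WT, Ssr1, a subunit of the translocon-associated complex, 77.5 and 78, and the lectin chaperone Canx 65.75 and 71 in its 1 site (WT and KO). Extracellular matrix and cell surface genes had 6 of 21 (28.6%, 11.3 to 52.2), among them the fibronectin gene Fn1 with 51 (WT) and 77.5 (KO), Fat1, a large cadherin, with 59 and 99 in WT, and Col18a1, a collagen, with 63.5. Both intervals hold the value for all protein-coding genes.

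The let-7 pathway and the cofactors of Lin28A had 4 of 11 genes (36.4%, 10.9 to 69.2). The mRNA of Lin28A itself was among them: the Lin28a site at chr4:134005101-134005150 had a score of 290 (WT) and 136 (KO), 1796 nt from the 3′ bound, with a KO site of 100 nt against 50 nt in WT. Igf2bp1, an mRNA-binding protein and let-7 target, had 67 and 283 in WT and 64 and 245 in KO. Mycn, a Myc family factor, had 70 and 69 (WT and KO) in 1 site, and Ago2, the Argonaute that carries microRNAs, 138 and 168. Igf2bp1 also counts as an m6A reader, and of 6 genes of m6A writers, erasers and readers with a WT site it was 1 of 3 (50%, 11.8 to 88.2) with a strong shared site. Wtap, a partner of Mettl3 in the m6A writer, had a single WT site, with 577 in WT and 580 in KO, at 1.62% of the gene. Hnrnpa2b1 had 50 and 87.

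Pluripotency factors had 5 of 25 (20%, 6.83 to 40.7). Besides Lin28a, Igf2bp1 and Mycn, which other sets also hold, these were Klf4, a Krüppel-like factor, with 72 (WT) and 77 (KO), and Tet1, an enzyme that oxidises 5-methylcytosine, with 133 and 109.5. Splicing factors and hnRNP proteins had 10 of 38 (26.3%, 13.4 to 43.1), with Sf3b1, a core protein of the U2 particle, at 154.7 and 73 in WT and 160 and 71 in KO, and Hnrnpab at 52.2 and 50.2 (WT and KO). Ddx5, an RNA helicase, had 1 sense site at 101.5 (WT) and 182 (KO) and 1 antisense site at chr11:106788001-106788050 at 89 and 85. Nucleolar and ribosome assembly genes had 4 of 16 (25%, 7.27 to 52.4): nucleolin (Ncl) with 54 and 95 in WT, Mybbp1a with 88 and 306, Utp20 with 78 and Wdr12 with 75.

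Glycolysis had 4 of 11 (36.4%, 10.9 to 69.2), the glucose transporter Slc2a3 at 132 (WT) and 219 (KO), aldolase (Aldoa) at 101 and 67, lactate dehydrogenase (Ldha) at 59 and 51, and pyruvate kinase (Pkm) at 80 and 63. The ubiquitin pathway had 6 of 23 (26.1%, 10.2 to 48.4), with Cul3, a ligase scaffold, at 54 and 64 and Psmd1, a proteasome subunit, at 89 and 93. Mitosis and DNA replication had 5 of 31 (16.1%, 5.45 to 33.7), with topoisomerase Top2a at 113 and 54.5 in WT, the helicase subunit Mcm3 at 65 and the polymerase subunit Pola1 at 66. Chromatin regulators had 2 of 23 (8.70%, 1.07 to 28.0), Trim28 and Parp1, the latter at 69 and 75 in WT and 58 and 75 in KO. The histone set, mainly variant and linker histones, held none in its 9 genes with a WT site. It is not a measure of histone genes as a whole: of 38 core histone genes of the clusters that it does not name and that had a WT site, looked up after the values were seen, 10 held 11 strong shared sites. H2bc11 had 50 (WT) and 64 (KO), and H2bc18 had 75.1 (WT) and 89.4 (KO) over 350 nt. Histone genes are near-identical copies, so these assignments are uncertain.

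Strong shared sites lay in the antisense of their gene more often than other sites did. The strand of the gene was in the table for 561 of the 689, and 103 of these (18.4%, exact 95% interval 15.2 to 21.8) were on the opposite strand. Of 6407 other WT sites in such genes, 7.40% (6.77 to 8.07) were antisense. The intervals are for counting error only and treat sites of 1 gene as independent. The other transcripts that may run through these bounds were not looked at.

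The antisense share went up with the score over all WT sites in single protein-coding genes. It was 6.20% (5.42 to 7.06) for scores from 13 to below 20, 6.41% from 20 to below 30, 10.4% from 30 to below 50, 15.6% from 50 to below 100, 18.2% from 100 to below 200, 32.4% from 200 to below 500 and 44.8% (26.4 to 64.3) from 500, where 13 of 29 sites were antisense. Besides Il1rapl1 and Pwwp3b, those 13 included sites in Rab31, a small GTPase of vesicle traffic (1286 in WT and 770 in KO), Csf2ra, a cytokine receptor (1256 and 495), Nlk, a kinase (1117 and 709), and Aqp3, a water and glycerol channel (1033 and 910). The antisense sites were narrow, with 101 of 103 at 50 nt, had a median WT score of 119 (102 to 150) against 87 (82 to 92) in the 458 sense sites, and lay in long genes, with a median length of 69295 nt against 27124 nt. Antisense sites among the other WT sites were alike in this, with 99.2% at 50 nt and a median gene length of 71006 nt.

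**Figure D4:**
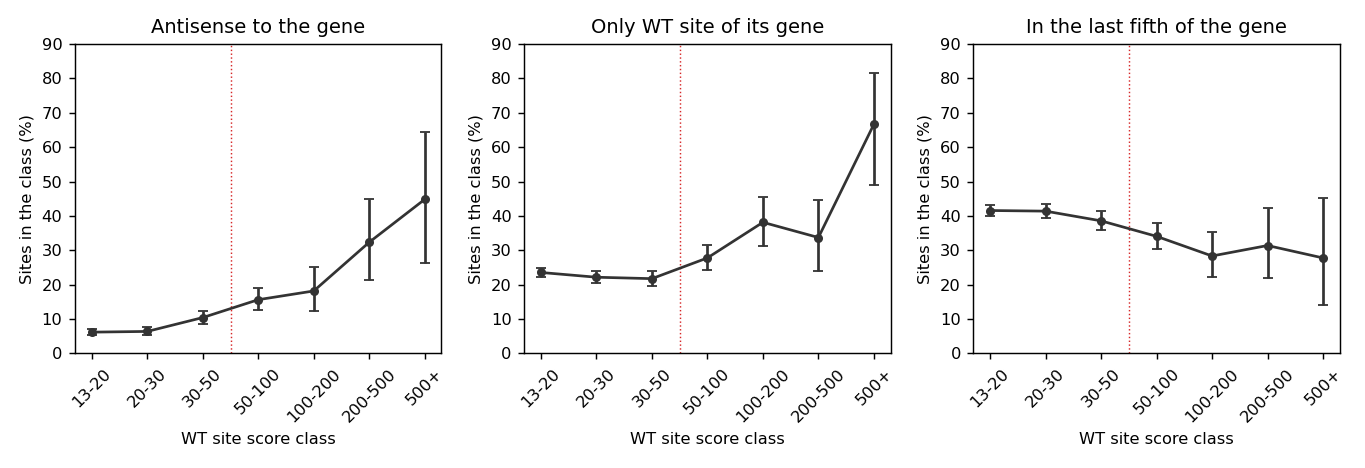
Share of all WT sites in single protein-coding genes that were antisense to the gene (left), the only WT site of the gene (middle) or in the last 20% of the gene's length (right), by WT score class; vertical axis in percent, bars are exact 95% intervals, and the dotted line marks a score of 50. The antisense share goes from 6.20% to 44.8% and the share of only sites from 23.6% to 66.7%, while the share in the last 20% goes from 41.6% to 27.8%.

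Over all orientations, a strong shared site was also more often the only WT site of its gene. This was so for 220 of the 689 (31.9%, 28.5 to 35.6) and for 23.2% (22.3 to 24.1) of the 7913 other WT sites, and 188 of the 220 genes had 1 site in the KO list too. Among sense sites the shares were 23.4% (19.6 to 27.5) and 19.6% (18.6 to 20.7), and these intervals overlap. Among antisense sites they were 67.0% (57.0 to 75.9) and 69.2% (64.8 to 73.3). By score class over all WT sites in single protein-coding genes, the share was 23.6% from 13 to below 20, 22.2% from 20 to below 30, 21.8% from 30 to below 50, 27.8% from 50 to below 100, 38.1% from 100 to below 200, 33.7% from 200 to below 500 and 66.7% (49.0 to 81.4) from 500. Rasa2, a Ras GTPase activator, is such a case, with 996 (WT) and 1019 (KO) in its only site.

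Being alone, being antisense and being narrow went together. Of the only sites in genes with a strand, 69 of 176 (39.2%, 31.9 to 46.8) were antisense, against 34 of 385 where the gene had 2 or more WT sites. The only sites were 50 nt wide in 94.5% and lay in genes with a median length of 54456 nt, and those with company lay in genes with a median of 25445 nt. The other WT sites went the same way, so this is not particular to the strong shared sites. Of their only sites, 22.0% were antisense and 97.5% were 50 nt wide, against 2.97% and 82.9% of those with company. At the other end, 139 strong shared sites lay in genes with 10 or more WT sites. Of these, 2 of 111 (1.80%, 0.219 to 6.36) were antisense, 46.0% were 50 nt wide, and the highest WT score was the 685 of Eef2.

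Within the gene bounds, the sites lay most often near the 3′ end. Cut into 5 equal parts from the 5′ bound, the genes held 19.3%, 13.2%, 14.7%, 19.2% and 33.7% (30.1 to 37.3) of the 689 sites. For the other WT sites the shares were 16.1%, 10.7%, 14.6%, 17.97% and 40.6% (39.5 to 41.7), so the last part held a smaller share of the strong shared sites and the intervals do not overlap. With 10 parts, the last held 24.1% and the first 12.3%. Within 1000 nt of the 3′ bound the shares were nearly equal, at 17.3% (14.5 to 20.3) and 17.2%. Gene bounds include introns, so these are positions in the gene and not in the mRNA.

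Sense and antisense sites differed in position. Among sense sites the last of the 5 parts held 37.3% (32.9 to 41.9) of the strong shared and 41.9% (40.6 to 43.1) of the other sites, and here the intervals overlap. Among antisense sites it held 12.6% (6.89 to 20.6) and 18.6% (15.2 to 22.4), while the first part held 31.1% (22.3 to 40.9) and 34.8%. Only 1 of the 103 antisense sites lay within 1000 nt of the 3′ bound. In the sense group, Mcm3 (159.5 nt), Pkm (196.5 nt) and Parp1 (273.5 nt) had sites whose centre lay close to the 3′ bound. Near the 5′ bound were Rps3 and, in Wtap, the site 417.5 nt from it.

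**Figure D5:**
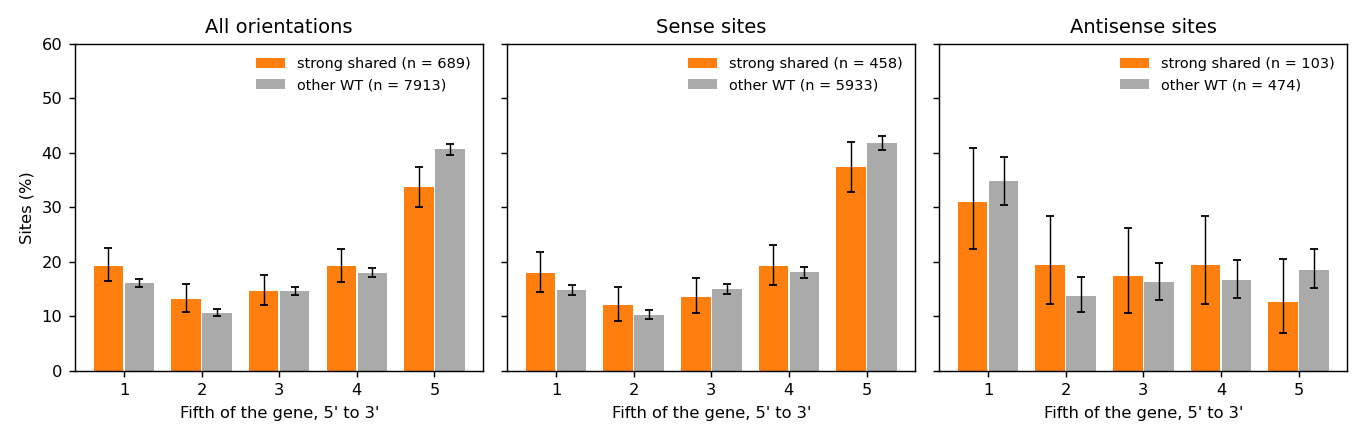
Share of sites (vertical axis, percent) in each of 5 equal parts of the gene from 5′ to 3′ (horizontal axis), for strong shared sites and other WT sites, over all orientations, in sense and in antisense; bars carry exact 95% intervals. Over all orientations the last part holds 33.7% and 40.6%, and the antisense sites are most frequent in the first, at 31.1% and 34.8%.

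The sites were narrow in both lists. In WT, 548 of the 689 (79.5%, 76.3 to 82.5) were 50 nt wide, 90 were 100 nt and 51 were 150 nt or wider, while 86.3% of the other WT sites were 50 nt wide. The KO partners also counted 548 of 50 nt. The bounds were identical in 633 sites (91.9%, 89.6 to 93.8). On the 50-nt grid, overlapping sites of 50 nt must have the same bounds, so the 532 of 548 narrow sites with identical bounds say only that the partner was narrow too. Of the 141 wider sites, where bounds were free to differ, 101 (71.6%, 63.4 to 78.9) were identical. Of the remaining 56 sites, 27 were wider in WT and 29 in KO. The widest sites after that of Hsp90ab1 were in H2bc18 (350 nt), Trim28 (300 nt at chr7:13024751-13025050, with 200 nt in KO), and 4 sites of 250 nt, among them those in Rpl8 and Rps3.

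Genes with several strong shared sites gave 100 pairs of neighbours on the same strand, with gaps taken from the WT bounds. Their median gap was 1100 nt (95% interval 750 to 2300), 46 were within 1000 nt, and 12 were 50 nt apart, the smallest gap the grid of the lists allows. Pairs 50 nt apart occurred in Cdk8, Eef1a1, Eef2, G3bp2, H2bc14, Hsp90ab1, Mcm5, Ran, Rpl8 and Ssr2. The largest gap, 969700 nt, was in Ccser1, a gene of 1202904 nt. The spacing of neighbours thus ranged from a single empty bin to distant parts of a gene.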

How the data were processed

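Lin28A irCLIP site lists from Mettl3 WT and KO mouse embryonic stem cells, 1 list per genotype, were used out of 22 samples; 12 icSHAPE files and the GFP controls were not used. Per the submitters' processing notes, Bowtie2, UMI-tools and mm10 were used (tool versions not stated). The site caller is not named. Each list as deposited by the authors gives bounds on a 50-nt grid, a score, a p-value and a strand. In the deposited files the score is a whole number for sites of 50 nt, and for sites of 100 to 200 nt the score times the number of bins is whole within 0.02. The p-value deposited by the authors is at most 1.01e-05 (WT) and 1.06e-05 (KO), and each score of a 50-nt site goes with 1 p-value. Lowest scores were 13 and 12.

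Sites were placed on RefSeq gene bounds of GRCm38.p6. Sites per gene count every site over its bounds, on either strand. Gene strand came from RefSeq's start-site table; for 128 sites without it the strand of the site set 5′ and 3′. Position is that of the site's centre. Intervals are exact Clopper-Pearson 95% intervals, for counting error only; PCR duplicates and sites of 1 gene are not independent. The placement and counting steps were tested on simulated sites. Tools were Python 3.11.15, pandas 2.3.3, NumPy 2.4.6, SciPy 1.17.1 and matplotlib 3.10.9.

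Genes and sites were named by rule: the 15 genes with the most strong shared sites, the 10 highest sites by score in each list, the 5 widest, the 5 just inside and outside the threshold in each list, up to 4 genes of each of 17 sets, and sites in start-site windows. Sites at the extremes of the ratio, close neighbours, clustered histone genes and further antisense or single sites were picked after their values were seen. The sites, sets and rules were chosen with earlier results of these data known. Alternatives were other score thresholds, overlap rules, widths and gene filters. Some items that the rule takes are not reported here.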

Additional observations from a re-analysis of the deposited data

How the results depend on the processing

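The choice of a score of 50 sets most counts. At 30 in both lists there were 1560 sites in 1121 genes, with median scores of 54 (WT) and 51 (KO), 21.9% of genes with 2 or more sites, 76.2% of sites 50 nt wide, 88.9% with identical bounds, 13.2% antisense and 27.1% the only WT site of their gene. At 100 there were 226 sites in 209 genes, with 6.70% of genes with 2 or more, 29.6% in the last 20% of the gene's length, 83.6% 50 nt wide, 25.7% antisense and 38.1% the only WT site. With 1 site per gene, 84.6% were 50 nt wide and 37.7% the only WT site. With sites of 50 nt only, 22.3% were antisense and 37.96% the only WT site. The antisense and only-site alternatives were chosen after seeing the data, as was the position of sense sites alone. Of 46 alternatives for the main values, 26, an overlap of 25 nt among them, moved them by less than the spread used as a yardstick and 20 by more, and of 30 for sites in single genes 18 moved the count by more than 1.5 times. Allowing either strand left 689, and so did requiring 25 nt of overlap, which on the 50-nt grid could not change the count and says nothing about stability. Identical bounds gave 633, the highest 10% of each list 546, starting from the KO list 686 and allowing several genes 768. No paired analysis was possible because each genotype had 1 list and the labels give no replicate numbers. Read depth, RNA levels and exons were not used here, whether the GFP controls entered the site calling is not stated, and each list is a single library.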
